A study of Mus musculus with 28 samples.

Results

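The transcripts of 10 genes of the STAT3 pathway were followed in mouse epidermal stem cells: Stat3 itself, the receptor genes Il6st, Il6ra, Osmr and Lifr, the feedback genes Socs1, Socs2, Socs3 and Cish, and the kinase gene Pim1. They were taken as a list of named genes, and all 10 of 10 were found among the 47729 gene IDs of the count tables and were among the 17299 genes tested. Skin of C57BL/6 mice labelled female received cream from postnatal day 60 for 6 days, either imiquimod, an agonist of Toll-like receptor 7 that provokes psoriasis-like inflammation, or control vanicream. Cells positive for integrin α6, integrin β1 and Sca1 and negative for CD34 were sorted, and RNA of 2 libraries per group was sequenced. The 8 groups were imiquimod and control at the end of treatment (day 6), imiquimod and control 30 days after treatment (day 30), and imiquimod and control skin wounded at 30 days and taken 6 h or 12 h later. The labels name no transgene or deletion. The labels do not say how many mice a library holds or whether replicates came from separate mice, so p values measure the spread between these libraries, which may be technical. At day 30 alone, reads of sex-linked genes (below) show that libraries 1 and 2 of a group did not come from the same mice. The series holds 28 samples, and its 12 chromatin accessibility samples were not analysed here.

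STAT3 is a transcription factor that is phosphorylated by Janus kinases after a cytokine binds its receptor, and then enters the nucleus. Interleukin-6, oncostatin M and leukaemia inhibitory factor each use a receptor of their own together with the shared signal transducer gp130, encoded by Il6st. SOCS proteins and CIS are made in response to cytokine signals, not those of gp130 alone, and dampen them, which closes a negative feedback loop. In skin, STAT3 in keratinocytes is known for its part in wound closure and in psoriasis-like disease. All values below are of RNA, so they say nothing of phosphorylation.

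The promoters of the feedback genes Cish and Socs3 are shown because theirs were the windows with a STAT motif, and because the levels of both genes swung widely among groups. STAT dimers bind palindromes of the form TTCNNNGAA, which reads the same on both strands. RefSeq windows of the GRCm38.p6 assembly (250 bases before to 50 after each start site) were found for 9 of the 10 genes, in 11 windows, and not for Socs2. The motif occurred in 2 of these 11 windows and in 8.3% of all 32851 windows. The Cish window held 2 matches, as did 0.457% of all windows counting those with 2 or more. Below, the motif is in capitals, and each sequence runs 5′ to 3′ on the strand of the gene, for Cish at chr9:107296409-107296678 on the plus strand and for Socs3 at chr11:117969367-117969616 on the minus strand.
Cish: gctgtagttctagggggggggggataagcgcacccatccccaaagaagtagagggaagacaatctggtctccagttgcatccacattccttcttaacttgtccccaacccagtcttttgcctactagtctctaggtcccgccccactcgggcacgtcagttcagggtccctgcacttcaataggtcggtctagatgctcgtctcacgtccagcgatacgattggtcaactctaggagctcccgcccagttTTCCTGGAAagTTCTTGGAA
Socs3: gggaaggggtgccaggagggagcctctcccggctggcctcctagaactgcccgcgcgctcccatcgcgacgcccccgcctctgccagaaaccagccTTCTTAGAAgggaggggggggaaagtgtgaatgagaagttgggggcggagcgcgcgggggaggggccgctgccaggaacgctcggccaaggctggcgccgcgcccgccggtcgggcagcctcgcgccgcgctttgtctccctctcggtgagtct
In Cish, TTCCTGGAA began at position 1 and TTCTTGGAA at position 12, counted from the annotated start site. In Socs3, TTCTTAGAA began 154 bases before the start site of its window (position -154). The gene span given below for Socs3 reaches to base 117970336 on this minus strand. The Socs3 window and motif (117969512-117969520) thus lie inside that span, downstream of its 5′ end, and the 2 annotated starts differ. A match describes the letters alone, and neither binding nor accessibility was measured here.

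Facts of the libraries that bear on what follows were few. Library totals ran from 23623968 to 76993427 counts, so the lowest count of a member in any library, for Socs2, was 12, while Stat3 had at least 10382. The sort markers were found as labelled: Krt5 stood at 14100 CPM or more (counts scaled to the library total) and Krt14 at 11300 or more, Itga6, Itgb1 and Ly6a (Sca1) at 504, 207 and 180 or more, and Cd34 at 10.4 or less. The sum of 6 hair follicle bulge markers, mostly Krt15, ran from 612 to 11700 CPM. Lists of cells other than keratinocytes reached at most 82.6 CPM summed over 10 macrophage markers and 131 over 6 Langerhans and dendritic markers. The highest sums were 4.78 over 6 T cell markers, 0.334 over 6 neutrophil markers (Elane at 0 throughout) and 657 over 7 fibroblast markers. They were 10 over 5 endothelial markers and 9.99 over 5 melanocyte markers. Both day 30 libraries numbered 1 held at most 1 Xist read and 7847 and 6048 reads of Y-linked genes, against 13 at most in the other libraries, although labelled female. Results that rest on day 30 are given without both of them where that changed a call. In bulk RNA, fewer cells that express a gene and less RNA per cell cannot be told apart.

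**Figure D1:**
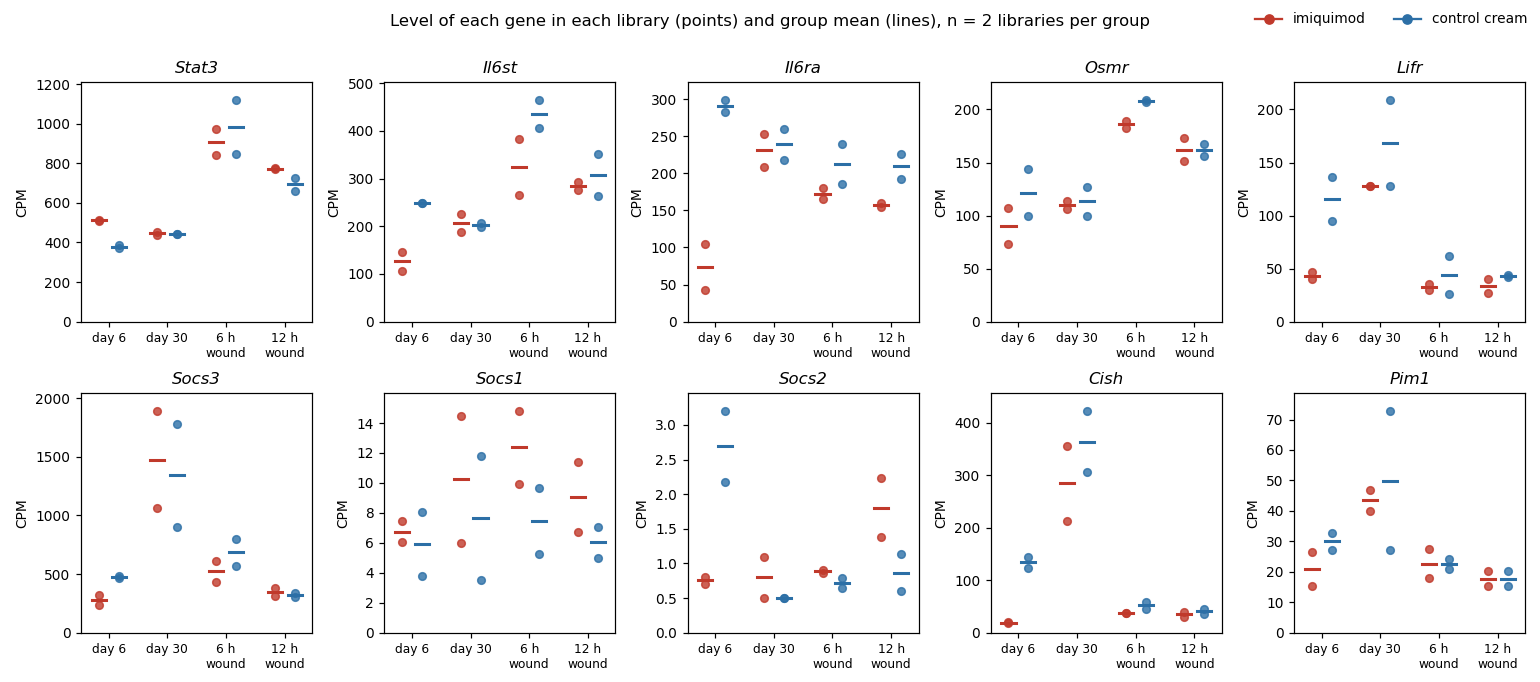
Level of each of the 10 genes (CPM, linear axis from 0) in every library, with imiquimod in red left of control cream in blue at each time; lines are means of 2 libraries. Stat3, Il6st and Osmr stood highest in 6 h wounds, and Socs3, Cish, Lifr and Pim1 in unwounded day 30 skin.

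The imiquimod comparison at day 6 asked what the inflamed cells held at the end of treatment. Stat3 was the 1 member that was higher, and 5 members were lower: the receptor genes Il6st, Il6ra and Lifr and the feedback genes Cish and Socs2. These 6 of 10 genes passed the edgeR test at an adjusted p of 0.05, against 36.6% of all genes tested, and the median log2 change was -0.64 over the 10 genes and 0.10 over all genes. Cish, whose product CIS competes for receptor docking sites, had 20.2 and 17.6 CPM in imiquimod cells, against 144 and 124 CPM in control cells, so the groups lay far apart. Its log2 change was -2.61 ± 0.24 (SE; adjusted p = 1.24e-05), rank 95 of all genes by p. Il6ra, the ligand-binding receptor of interleukin-6, had 42.4 and 105 CPM in imiquimod cells, against 283 and 299 CPM in control cells. Both imiquimod libraries were below both controls but differed from each other, and the log2 change of -1.73 ± 0.33 (adjusted p = 0.00177) became -2.67 without imiquimod library 2.

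The shared transducer and the third receptor moved less. Il6st had 106 and 147 CPM in imiquimod cells, against 249 and 249 CPM in control cells, a log2 change of -0.75 ± 0.22 (adjusted p = 0.0174). Lifr, the receptor of leukaemia inhibitory factor, had 46.5 and 39.8 CPM in imiquimod cells, against 136 and 95 CPM in control cells (-1.21 ± 0.35, adjusted p = 0.0177). In neither gene did the groups overlap. Socs2, best known as a brake on growth hormone signalling, was rare, at 0.709 and 0.800 CPM in imiquimod cells, against 2.18 and 3.20 CPM in control cells (-1.61 ± 0.45, adjusted p = 0.0129). Stat3 had 513 and 509 CPM in imiquimod cells, against 370 and 388 CPM in control cells, and the groups did not overlap. The fit, which adds TMM scaling between libraries, put its log2 change at 0.65 ± 0.18 (edgeR adjusted p = 0.0145), a 1.57-fold higher level. On that scale the imiquimod libraries were at 8.94 and 9.09 log2 CPM and the controls at 8.34 and 8.40.

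The canonical feedback gene of gp130 signalling, Socs3, did not go up with Stat3. It had 234 and 322 CPM in imiquimod cells, against 480 and 464 CPM in control cells. Both imiquimod libraries were below both controls, but the log2 change of -0.54 ± 0.38 did not pass the test (adjusted p = 0.302). With the replicate number as a block within the time point it was -0.57 and passed (adjusted p = 0.014). Socs1, the feedback gene better known for interferon signals, had 6.03 and 7.43 CPM in imiquimod cells, against 3.80 and 8.09 CPM in control cells, so the groups overlapped. Osmr, the oncostatin M receptor (-0.24 ± 0.20), and Pim1, a STAT-induced survival kinase (-0.28 ± 0.42), did not pass either, with adjusted p values of 0.372 and 0.646.

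Of the 6 calls at day 6, those of Cish and Il6ra held without any 1 of the 4 libraries. Without control library 1 the adjusted p was 0.0945 for Stat3, 0.054 for Il6st and 0.114 for Lifr, and without control library 2 it was 0.0636 for Stat3, 0.0941 for Socs2 and 0.0644 for Il6st. Without imiquimod library 1 it was 0.077 for Socs2, 0.128 for Il6st (log2 change -0.49) and 0.0722 for Lifr, and without imiquimod library 2 it was 0.077 for Stat3 and 0.0936 for Lifr. With the 4 compared libraries alone in the fit it was 0.0801 for Stat3. Imiquimod library 1, the lower one for Il6st and Il6ra, had 7.65% mitochondrial reads, against 1.13% to 3.31% in the other libraries of the series. Other cells also moved with this comparison: 7 of 10 macrophage markers were higher and 0 lower, their sum being 77.5 to 82.6 CPM in imiquimod cells and 11.7 to 21.7 CPM in control cells, with Adgre1, C1qa and Csf1r above 0 in all 4 libraries. Of 6 hair follicle bulge markers 1 was higher (Sox9, 2.45 ± 0.36) and 1 lower (Krt15, -4.18 ± 0.46), with a median log2 change of 0.14. Their sum was 612 to 619 CPM in imiquimod cells and 7550 to 11700 CPM in control cells, most of it Krt15. Of 4 tested Langerhans and dendritic markers, 2 of T cells and 3 of endothelium, 1 each was higher, and 1 of 7 fibroblast markers (Thy1) was lower. The part of these in the results was not tested.

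**Figure D2:**
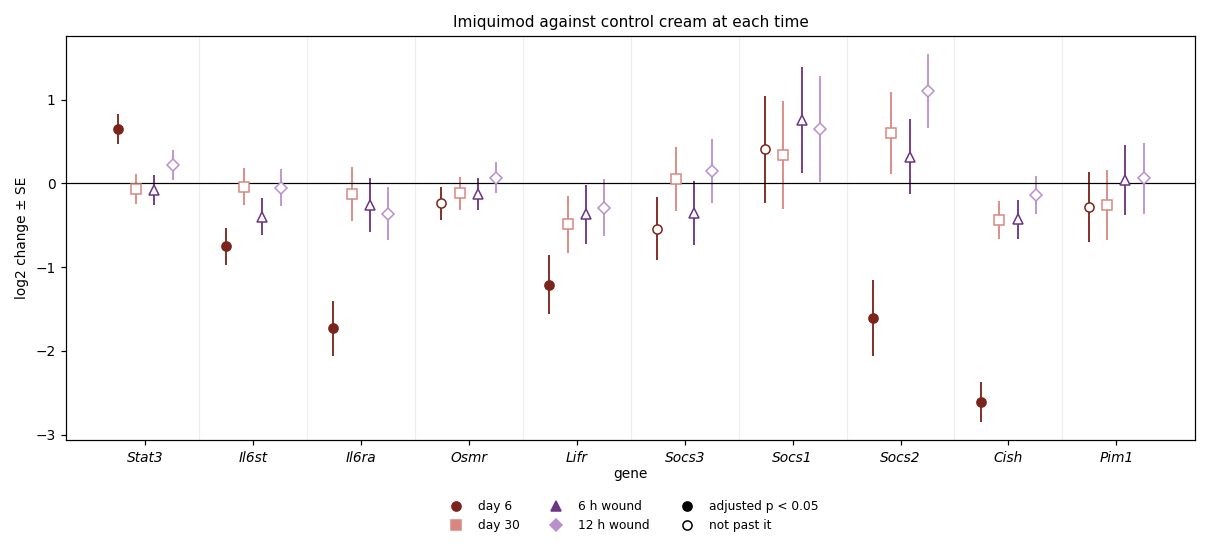
Log2 change (y axis, ± SE) of imiquimod against control cream for each gene (x axis) at day 6, day 30 and 6 h and 12 h after wounding; filled symbols passed an adjusted p of 0.05. The filled symbols, all at day 6, are Stat3 above 0 and Il6st, Il6ra, Lifr, Socs2 and Cish below it.

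At later times the question was whether earlier imiquimod left a trace in these genes. At day 30, 0 of 10 members passed edgeR's test, beside 0.0116% of all 17299 genes tested. An unadjusted p under 0.05 was found for 0 members and 716 of all genes. DESeq2 called 0 members and 19 of all genes. Cish had 213 and 356 CPM in imiquimod cells, against 305 and 422 CPM in control cells, overlapping groups with a log2 change of -0.44 ± 0.23. The library with the lower Cish value in each group was number 1, and the same libraries had the higher Socs3 values, 1890 and 1060 CPM in imiquimod cells, against 1780 and 905 CPM in control cells. Socs3 thus differed more between library numbers than between treatments, with a log2 change for imiquimod of 0.05 ± 0.38. Socs1 followed the same numbers, at 14.5 and 6.01 CPM in imiquimod cells, against 11.8 and 3.53 CPM in control cells.

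In wounds, imiquimod history went with 0 of 10 calls at 6 h, beside 0.0347% of all genes by edgeR. There 0 members and 1091 of all genes had an unadjusted p under 0.05, and DESeq2 called 0 members and 108 of all genes. At 12 h there were again 0 of 10 (0 by DESeq2), beside 0 of all genes by edgeR and 26 by DESeq2. Socs2 was the 1 member with an unadjusted p under 0.05, beside 425 of all genes. Socs2 had 1.38 and 2.23 CPM in 12 h wounds after imiquimod, against 0.596 and 1.14 CPM in 12 h wounds after control cream. These groups did not overlap in CPM, but such a separation of 2 against 2 libraries allows no permutation p under 0.333. The log2 change of Socs2 was 1.10 ± 0.44 with an adjusted p of 1. Cish (-0.43 ± 0.23) and Il6st (-0.40 ± 0.22) were the members closest to the threshold at 6 h, each with an adjusted p of 0.875. The Langerhans and dendritic sum in 12 h wounds was 41.6 to 51.6 CPM after imiquimod and 13.5 to 20.7 after control cream. The bulge sum there was 1260 to 2020 CPM after imiquimod and 2450 to 2480 CPM after control cream. Of these lists 0 of 4 and 0 of 6 tested markers passed, and the part of these cells was not tested.

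The imiquimod change itself differed between day 6 and day 30 in 3 members, beside 22.5% of all genes tested for that difference. The log2 change at day 6 minus that at day 30 was -2.21 ± 0.66 for Socs2 (adjusted p = 0.0297), -2.18 ± 0.32 for Cish (0.000886) and -1.61 ± 0.46 for Il6ra (0.027). Stat3 (0.71 ± 0.26, adjusted p = 0.0651), Socs3 (-0.59 ± 0.54, 0.481) and Il6st (-0.71 ± 0.31, 0.122) missed the threshold. All 3 passed with the replicate block, at 0.00657, 0.0477 and 0.048, and Stat3 also with DESeq2 (0.0343). Lifr (-0.73 ± 0.49, adjusted p = 0.32) passed with no filter on low counts (0.0483). The call of Cish held without any 1 of 8 libraries, while those of Socs2 and Il6ra were lost without several. For Socs2 the adjusted p was 0.103 without day 6 control library 2, 0.071 and 0.0502 without day 6 imiquimod libraries 1 and 2, 0.0608 and 0.0693 without day 30 control libraries 1 and 2, and 0.164 without day 30 imiquimod library 2. For Il6ra it was 0.0531 and 0.0742 without day 6 control libraries 1 and 2, 0.0777 without day 30 control library 1 and 0.0785 without day 30 imiquimod library 2. Il6ra went to -2.56 without day 6 imiquimod library 2, and without both day 30 libraries numbered 1 its adjusted p was 0.0799. With the 8 compared libraries alone it was 0.0732 for Socs2 and 0.0874 for Il6ra, and with all libraries thinned to the smallest total 0.0573 for Socs2. Il6st passed without day 6 imiquimod library 2 (0.0252).

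Wounding was compared with unwounded day 30 skin of the same treatment. At 6 h Stat3, Il6st and Osmr were higher and Cish, Lifr and Socs3 lower, after imiquimod and after control cream alike. After imiquimod these were the 6 calls among 10 members, beside 38.7% of all genes, and after control cream Pim1 was also lower, giving 7 of 10 beside 34.7%. Stat3 had 842 and 971 CPM in 6 h wounds after imiquimod, against 439 and 454 CPM in unwounded imiquimod skin (1.00 ± 0.18, adjusted p = 0.00105). After control cream it had 846 and 1120 CPM in 6 h wounds, against 441 and 445 CPM in unwounded skin (1.02 ± 0.18, adjusted p = 0.00119). All 4 wound libraries exceeded all unwounded ones, and both calls held without any 1 library.

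The 2 receptor genes that were higher encode the shared transducer and the partner it needs for oncostatin M. Il6st had 384 and 265 CPM in 6 h wounds after imiquimod, against 226 and 188 CPM in unwounded imiquimod skin (0.61 ± 0.22, adjusted p = 0.0438). Il6st after control cream had 465 and 406 CPM in 6 h wounds, against 206 and 198 CPM in unwounded skin (0.97 ± 0.22, adjusted p = 0.00503). The control change held without any 1 library, whereas after imiquimod the adjusted p was 0.0529 and 0.284 without unwounded libraries 1 and 2, 0.298 without wound library 1 (log2 change 0.37), 0.0541 without both day 30 libraries numbered 1, 0.0585 with the compared libraries alone and 0.0655 with a filter at a mean of 10 counts. Osmr had 189 and 183 CPM in 6 h wounds after imiquimod, against 114 and 106 CPM in unwounded imiquimod skin (0.73 ± 0.20, adjusted p = 0.0103). After control cream it had 209 and 207 CPM in 6 h wounds, against 127 and 99.7 CPM in unwounded skin (0.74 ± 0.20, adjusted p = 0.0116). For Osmr the call was lost without unwounded library 2 (0.0879 after imiquimod, 0.089 after control cream) and without wound library 2 (0.0645 and 0.0629). Of 7 fibroblast markers Thy1 was called higher after imiquimod, where the list's median log2 change was -3.01, and Pdgfra and Dcn after control cream, where it was 3.31. The sums of this list were 403 to 405 CPM in 6 h wounds and 117 to 306 CPM in unwounded skin after imiquimod, and 410 to 450 CPM in 6 h wounds and 95.7 to 213 CPM in unwounded skin after control cream. Macrophage markers were higher for 3 of 10 after imiquimod and 7 of 10 after control cream, at a sum of 13.1 CPM or less in 6 h wounds and 2.44 CPM or less in unwounded skin. Of 6 bulge markers 0 were higher and 3 lower after imiquimod, and 2 higher and 3 lower after control cream. Their sums were 1060 to 1680 CPM in 6 h wounds and 8730 to 9790 CPM in unwounded skin after imiquimod, and 1020 to 2510 CPM in 6 h wounds and 4880 to 7080 CPM in unwounded skin after control cream. The part of these cells in the changes was not tested.

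Lifr went the other way from the gp130 gene it pairs with. It had 35.7 and 30.0 CPM in 6 h wounds after imiquimod, against 128 and 128 CPM in unwounded imiquimod skin (-1.99 ± 0.36, adjusted p = 0.00119), and 61.6 and 26.0 CPM in 6 h wounds after control cream, against 209 and 128 CPM in unwounded skin (-2.11 ± 0.36, adjusted p = 0.00108). No wound library reached an unwounded one, and the control change was -2.79 without wound library 1. Il6ra was the receptor gene with no call, at 180 and 165 CPM in 6 h wounds after imiquimod, against 209 and 253 CPM in unwounded imiquimod skin (-0.45 ± 0.32, adjusted p = 0.302).

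Cish had the largest wound change of the 10 genes. It had 38.0 and 37.6 CPM in 6 h wounds after imiquimod, against 213 and 356 CPM in unwounded imiquimod skin (-2.93 ± 0.24, adjusted p = 9.13e-06). After control cream it had 45.2 and 58.4 CPM in 6 h wounds, against 305 and 422 CPM in unwounded skin (-2.94 ± 0.24, adjusted p = 1.13e-05). These calls held without any 1 library and ranked 36 and 27 of all genes by p. Socs3 had 436 and 615 CPM in 6 h wounds after imiquimod, against 1890 and 1060 CPM in unwounded imiquimod skin (-1.51 ± 0.39, adjusted p = 0.00876). Control cream skin had 570 and 802 CPM in 6 h wounds, against 1780 and 905 CPM in unwounded skin (-1.11 ± 0.39, adjusted p = 0.0408). The unwounded libraries numbered 1 carried much of this change. Without control library 1 it was -0.49 (adjusted p = 0.382), without both libraries numbered 1 it was -0.52 (0.236) after control cream and -1.02 (0.0226) after imiquimod, and without imiquimod library 1 it was -1.01 (0.0784). Without the 6 h libraries the adjusted p for Socs3 was 0.218 (library 1) and 0.0659 (library 2) after control cream and 0.0765 (library 1) after imiquimod, and with the compared control libraries alone it was 0.106.

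Pim1 had 17.8 and 27.5 CPM in 6 h wounds after imiquimod, against 40.1 and 46.9 CPM in unwounded imiquimod skin (-0.96 ± 0.42, adjusted p = 0.0935). Pim1 after control cream had 20.9 and 24.2 CPM in 6 h wounds, against 27.0 and 72.8 CPM in unwounded skin (-1.27 ± 0.42, adjusted p = 0.0381). Without unwounded library 2 the control change was -0.42 (adjusted p = 0.44). Without 6 h library 1 or 2 the adjusted p was 0.184 or 0.126, and with the compared libraries alone 0.11. After imiquimod Pim1 passed with the replicate block (-1.02, adjusted p = 0.0177), with DESeq2 (0.0447), with the compared libraries alone (0.0247), with no filter on low counts (0.000198) and without both day 30 libraries numbered 1 (0.0478). Socs1 and Socs2 showed no call at 6 h in either treatment, with log2 changes between -0.18 and 0.39.

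**Figure D3:**
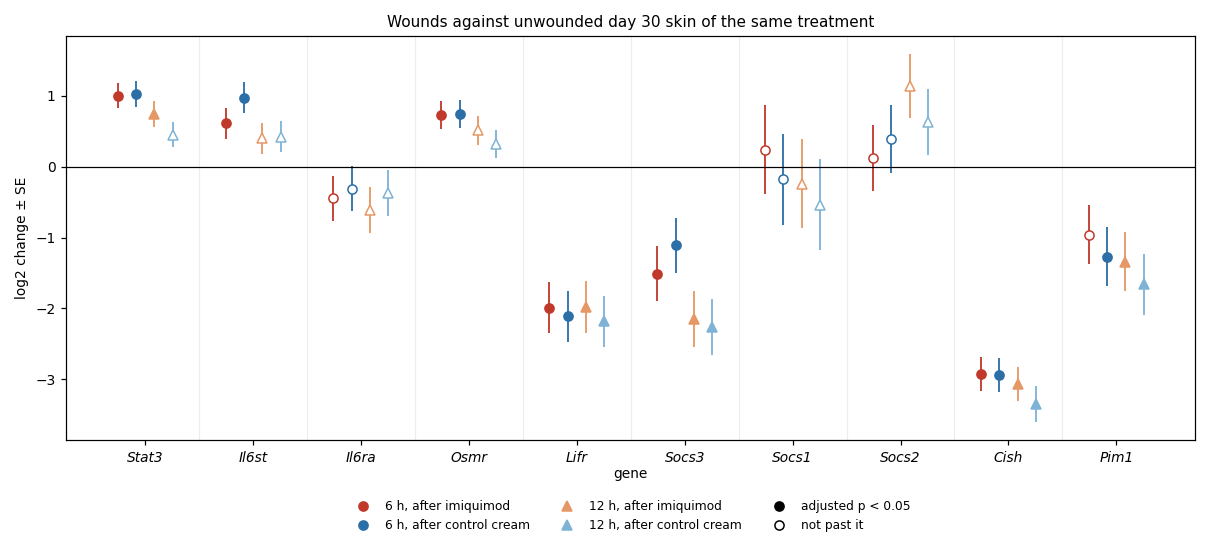
Log2 change (y axis, ± SE) of 6 h and 12 h wounds against unwounded day 30 skin of the same treatment for each gene (x axis); filled symbols passed an adjusted p of 0.05. Stat3, Il6st and Osmr lie above 0 in all 4 comparisons, Lifr, Socs3, Cish and Pim1 below 0.

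At 12 h the feedback genes Socs3 and Cish, with Lifr and Pim1, were again lower, while fewer genes were called higher. After imiquimod 5 of 10 members passed, Stat3 higher and Socs3, Cish, Lifr and Pim1 lower, beside 37.6% of all genes. After control cream the same 4 genes were lower and 0 were higher, beside 30.8%. Stat3 had 777 and 769 CPM in 12 h wounds after imiquimod, against 439 and 454 CPM in unwounded imiquimod skin (0.74 ± 0.18, adjusted p = 0.00706). Stat3 after control cream had 659 and 727 CPM in 12 h wounds, against 441 and 445 CPM in unwounded skin. These control groups did not overlap either, but the log2 change of 0.45 ± 0.18 gave an adjusted p of 0.077, and 0.00839 with the replicate block.

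Of the feedback genes, Socs3 and Cish had calls at 12 h. Socs3 had 311 and 380 CPM in 12 h wounds after imiquimod, against 1890 and 1060 CPM in unwounded imiquimod skin (-2.15 ± 0.40, adjusted p = 0.00127), and 308 and 341 CPM in 12 h wounds after control cream, against 1780 and 905 CPM in unwounded skin (-2.26 ± 0.40, adjusted p = 0.00136). Both calls held without any 1 library, and the control change was -1.64 without unwounded library 1. Cish had 30.8 and 39.3 CPM in 12 h wounds after imiquimod, against 213 and 356 CPM in unwounded imiquimod skin (-3.06 ± 0.24, adjusted p = 6.99e-06), and 44.5 and 36.5 CPM in 12 h wounds after control cream, against 305 and 422 CPM in unwounded skin (-3.35 ± 0.25, adjusted p = 6.43e-06).

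Lifr changed by -1.98 ± 0.36 after imiquimod (27.0 and 39.9 CPM in 12 h wounds, against 128 and 128 CPM unwounded) and by -2.18 ± 0.36 after control cream (41.9 and 43.7 CPM in 12 h wounds, against 209 and 128 CPM unwounded), with adjusted p values of 0.00127 and 0.00108. Pim1 changed by -1.34 ± 0.42 after imiquimod (15.3 and 20.2 CPM in 12 h wounds, against 40.1 and 46.9 CPM unwounded; adjusted p = 0.0283) and by -1.66 ± 0.43 after control cream (15.4 and 20.1 CPM in 12 h wounds, against 27.0 and 72.8 CPM unwounded; adjusted p = 0.0133). The calls of Pim1 were less firm than those of Lifr. After imiquimod its adjusted p was 0.0663 and 0.106 without unwounded libraries 1 and 2, and 0.169 and 0.0752 without 12 h libraries 1 and 2. After control cream Pim1 was at -0.82 (0.137) without unwounded library 2, and its adjusted p was 0.111 and 0.0566 without 12 h libraries 1 and 2 and 0.0569 with the compared libraries alone.

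Il6st and Osmr did not pass at 12 h in the main test. Osmr had 151 and 173 CPM in 12 h wounds after imiquimod, against 114 and 106 CPM in unwounded imiquimod skin (0.51 ± 0.20, adjusted p = 0.0579), and passed with the replicate block (0.50, adjusted p = 0.0024), with the compared libraries alone (0.035) and with no filter on low counts (0.0108). Osmr after control cream had 156 and 167 CPM in 12 h wounds, against 127 and 99.7 CPM in unwounded skin (0.32 ± 0.20, adjusted p = 0.242), and 0.0217 with the block. Socs2 after imiquimod (1.13 ± 0.45, adjusted p = 0.065) passed with the block at 0.0233. Il6ra after imiquimod (-0.61 ± 0.32, adjusted p = 0.164) passed with the compared libraries alone (0.0167) and with no filter on low counts (0.0258). Of the bulge markers 1 was higher and 3 were lower in each treatment at 12 h, at sums of 1260 to 2020 CPM in wounds after imiquimod and 2450 to 2480 CPM in wounds after control cream. Macrophage markers were higher for 1 of 10 after imiquimod and 3 of 10 after control cream, and fibroblast markers for 1 of 7 in each. The part of these cells was not tested.

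Between 6 h and 12 h, 0 of 10 members passed edgeR's test in either treatment, beside 0.647% of all genes after control cream and 0.173% after imiquimod. After control cream Stat3 (-0.56 ± 0.18), Socs3 (-1.14 ± 0.39) and Il6st (-0.55 ± 0.22) had an unadjusted p under 0.05 and adjusted p values of 0.183, 0.203 and 0.285. Of all genes 2381 had an unadjusted p under 0.05 there. In Stat3, Socs3 and Il6st both 12 h libraries were below both 6 h libraries. Such a separation of 2 against 2 libraries allows no permutation p under 0.333. With the replicate block Stat3 (0.0211), Socs3 (0.00766) and Osmr (0.0342) passed, Stat3 passed with DESeq2 (0.04), and Socs3 with no filter on low counts (1.82e-05). Of all genes 1296 passed with the block and 632 with DESeq2. After imiquimod Socs2 had an unadjusted p under 0.05 (1.01 ± 0.44, adjusted p = 0.423), as had 1858 of all genes. There 0 members passed with DESeq2 or the block, beside 314 and 635 of all genes.

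The wound response was then compared between treatments. At 6 h and at 12 h 0 of 10 members differed by edgeR, as did 0 of all genes. An unadjusted p under 0.05 was found for 0 members, beside 1057 of all genes at 6 h and 503 at 12 h. DESeq2 called 0 members, and among all genes 18 at 6 h and 1 at 12 h. At 6 h the response after imiquimod minus that after control cream was -0.02 ± 0.26 for Stat3, 0.01 ± 0.32 for Cish, 0.12 ± 0.49 for Lifr and -0.40 ± 0.54 for Socs3. At 12 h it was 0.29 ± 0.26 for Stat3, 0.29 ± 0.32 for Cish, 0.19 ± 0.49 for Lifr and 0.10 ± 0.54 for Socs3.

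The 2 unwounded control groups, either of which can serve as baseline for the wounds, differed in some of these genes. In day 30 control Stat3, Socs3 and Cish were higher and Socs2 lower than in day 6 control, 4 of 10 members beside 21.3% of all genes. Socs3 had 1780 and 905 CPM in day 30 control, against 480 and 464 CPM in day 6 control (1.85 ± 0.39, adjusted p = 0.00746), and Cish had 305 and 422 CPM in day 30 control, against 144 and 124 CPM in day 6 control (1.76 ± 0.23, adjusted p = 0.00036). In both genes the lower day 30 library was still above the higher day 6 library. Stat3 was at 0.56 ± 0.18 (adjusted p = 0.0472) and Socs2 at -2.09 ± 0.47 (0.00913). The call of Cish held without any 1 library. Leaving out day 6 library 1 or 2 or day 30 library 1 or 2 gave 0.202, 0.142, 0.152 and 0.0972 for Stat3, and leaving out the first 3 of these gave 0.0547, 0.0536 and 0.0579 for Socs3, which was at 1.22 without day 30 library 1 and at 1.17 (0.0268) without both day 30 libraries numbered 1. Socs2 had 0.0574 without day 6 library 2 and 0.0507 with the compared libraries alone. Stat3 had 0.136 in that fit, 0.175 without both libraries numbered 1, 0.0544 with RLE scaling, 0.0608 with a filter at a mean of 10 counts and 0.0553 after thinning. Lifr (0.88 ± 0.34) and Pim1 (1.05 ± 0.42) passed with the block (0.0451 and 0.035), with DESeq2 (0.0411 and 0.0407) and with no filter (4.55e-05 and 2.53e-05), Lifr also without day 30 library 2 (0.0495) and Pim1 without day 30 library 1 (0.0197) or both libraries numbered 1 (0.0231). Of 10 macrophage markers 9 were lower in day 30 control, with sums of 2.13 to 2.32 CPM in day 30 control and 11.7 to 21.7 CPM in day 6 control. Fibroblast markers were lower for 4 of 7, with sums of 95.7 to 213 CPM in day 30 control and 336 to 657 CPM in day 6 control. Of 6 bulge markers 2 were higher and 3 lower, and of 3 tested melanocyte markers 2 were lower. The part of these cells was not tested.

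Against day 6 control skin, Stat3, Il6st and Osmr were again higher in 6 h control wounds and Cish and Lifr lower, whereas Socs3 had the opposite sign. At 6 h Stat3 was at 1.57 ± 0.19 (adjusted p = 5.29e-05), Il6st at 0.99 ± 0.22 (0.00358) and Osmr at 0.97 ± 0.20 (0.002), while Cish was at -1.18 ± 0.23 (0.00149), Lifr at -1.22 ± 0.35 (0.016) and Socs2 at -1.70 ± 0.45 (0.00954). These 6 of 10 calls stood beside 39.9% of all genes. Socs3 was at 0.74 ± 0.38 (adjusted p = 0.144): both 6 h libraries, at 570 and 802 CPM, exceeded both day 6 controls, at 480 and 464 CPM, and it passed with the block (0.70, adjusted p = 0.00477), with the compared libraries alone (0.043) and with no filter (0.00138). So Socs3 in 6 h control wounds lay below both day 30 control libraries and above both day 6 control libraries. Lifr lost its call without day 6 library 1 (0.11), without 6 h library 2 (-0.76, 0.117) and with the compared libraries alone (0.0616), and was at -1.91 without 6 h library 1. Socs2 lost its call without day 6 library 2 (0.072) or 6 h library 2 (0.074). The wounds share their day 30 or day 6 baseline with other comparisons, and day 6 skin was also taken 30 days earlier than wounded skin, so time and wounding cannot be told apart in this comparison.

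At 12 h, 5 of 10 members passed against day 6 control, beside 37.5% of all genes. Stat3 (1.01 ± 0.18, adjusted p = 0.00108) and Osmr (0.55 ± 0.20, 0.0424) were higher, and Cish (-1.59 ± 0.23, 0.000225), Lifr (-1.29 ± 0.35, 0.013) and Socs2 (-1.46 ± 0.44, 0.0189) lower. Stat3 and Cish kept their calls without any 1 library, and the other 3 did not. Osmr had 0.327 without day 6 library 2 and 0.0948 and 0.174 without 12 h libraries 1 and 2, 0.0533 with RLE scaling, 0.112 with a filter at a mean of 10 counts and 0.0509 after thinning. Lifr had 0.0884 without day 6 library 1 and 0.0867 and 0.0709 without 12 h libraries 1 and 2. Socs2 had 0.127 without day 6 library 2, 0.173 without 12 h library 1 and 0.0526 after thinning. Socs3 was at -0.40 ± 0.38 (0.431), and passed with the block (0.0493) and with the compared libraries alone (0.0304), in which Il6st (0.0484) and Pim1 (0.0226) passed too; Il6st also passed with no filter (0.0328). Cish and Lifr were thus lower in control wounds against both unwounded groups at both times, and Stat3 was higher against both at 6 h.

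**Figure D4:**
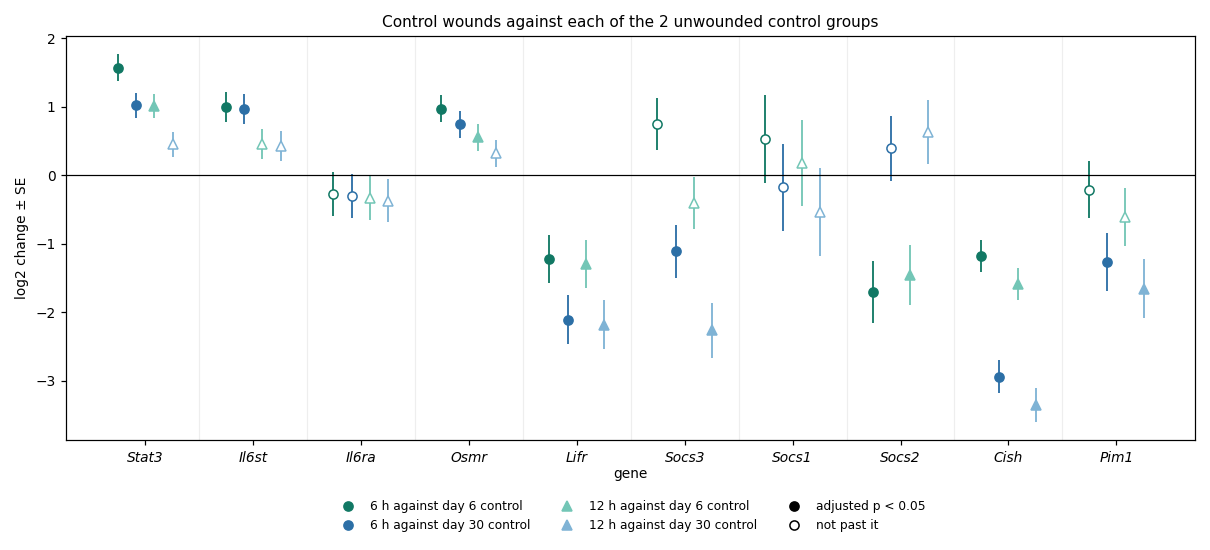
Log2 change (y axis, ± SE) of control wounds for each gene (x axis) against day 6 control skin (green) and day 30 control skin (blue), at 6 h (circles) and 12 h (triangles); filled symbols passed an adjusted p of 0.05. Socs3 at 6 h is at 0.74 against day 6 control and at -1.11 against day 30 control, while Cish is below 0 in all 4.

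Over the 8 groups the order of levels differed among the members. Stat3 ran from 6 h control wounds (981 ± 192 CPM, SD) through 6 h wounds after imiquimod (907 ± 91.4) and both 12 h groups to day 6 imiquimod (511 ± 2.33), both day 30 groups and day 6 control (379 ± 12.4). Ranges of neighbours in this order overlapped for the pair of 6 h groups and for the pair of day 30 groups. Cish spanned 19.2-fold between group means, from 363 ± 82.6 CPM in day 30 control to 18.9 ± 1.84 CPM in day 6 imiquimod, with day 6 control (134 ± 14.4) standing alone between the day 30 groups and the wounds. Socs3 spanned 5.29-fold, from 1470 ± 588 CPM in day 30 imiquimod to 278 ± 62.1 CPM in day 6 imiquimod, Lifr 5.12-fold and Il6ra 3.94-fold. In Socs1 every group overlapped its neighbour in the order, from 12.4 ± 3.41 CPM in 6 h wounds after imiquimod to 5.94 ± 3.04 CPM in day 6 control.

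Across the 16 libraries, log2 levels of Stat3 and Osmr had a Pearson r of 0.81 and those of Il6st and Osmr 0.82, while Cish went with Lifr (0.88), Socs3 (0.81) and Pim1 (0.81), and Stat3 against Lifr (-0.74). Stat3 and Socs3 had an r of -0.10. These are descriptions over libraries that share groups and treatments. The genes most like Stat3 among 9997 genes were Map7d1 (0.983), Plbd1 (0.98) and Elovl7, Tnfrsf1a and Utp14a (0.978 each), and those most like Socs3 were Mafk (0.978), Sertad1 (0.977), Sirt1 (0.972), Wsb1 (0.968) and Zfp36l1 (0.966).

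The rest of the pathway was described with 5 lists of 70 genes, of which 62 were tested. Of the gp130 ligands 7 were tested. Il6 itself was found mainly in unwounded day 30 skin, at 9.99 and 15.0 CPM in imiquimod cells and 12.8 and 18.0 CPM in control cells, against at most 1.95 CPM in any other library. Its log2 change in 6 h wounds was -4.21 ± 0.77 after imiquimod and -3.47 ± 0.73 after control cream (adjusted p = 0.00123 and 0.00348). Lif had 26.7 and 11.5 CPM in day 6 imiquimod cells, against 1.31 and 2.62 CPM in day 6 control cells (3.49 ± 0.52, adjusted p = 0.000287), where its receptor gene Lifr was lower. These 2 ligands were named after their values were seen. Clcf1, which signals through the CNTF receptor, had 122 and 125 CPM in 6 h wounds after imiquimod, against 20.2 and 4.48 CPM in unwounded imiquimod skin (3.28 ± 0.83, adjusted p = 0.012), where the unwounded libraries lay far apart. After control cream Clcf1 had 80 and 93.7 CPM in 6 h wounds, against 26.9 and 19.3 CPM in unwounded skin, and did not pass (1.77 ± 0.78, adjusted p = 0.108). Osm, the ligand of Osmr, was not tested, with at most 0.313 CPM in any library.

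At day 6, 20 of the 62 pathway genes were higher and 12 lower, together 51.6% against 36.6% of all genes. The lists were chosen with earlier results of these data known, so this share and those in wounds below are descriptions and no test of the pathway. By list, 1 was higher and 2 lower of 7 gp130 ligands, 3 and 2 of 10 other receptors, 0 and 3 of 9 Janus kinases and other STATs, 3 and 3 of 13 other negative regulators and 13 and 2 of 23 STAT3 target genes. The targets had a median log2 change of 1.22 over the 23 tested, against 0.10 over all genes; Lcn2, an iron-withholding protein, Bcl3, a nuclear regulator of NF-κB (2.50 ± 0.41), and Serpina3n, a protease inhibitor (2.46 ± 0.38), rose, while Fos (-1.72 ± 0.32) and the survival gene Mcl1 (-0.73 ± 0.17) fell. Lcn2 had 252 and 77.6 CPM in imiquimod cells, against 0.525 and 0.0688 CPM in control cells, the last resting on 2 counts, so no fold is given. Other brakes moved both ways: Socs5 rose (1.35 ± 0.22, adjusted p = 0.000435), whereas Socs7 (-1.13 ± 0.13, 4.88e-05), the phosphatase gene Ptpn6 (-1.0 ± 0.15, 0.000243) and Pias3 (-0.95 ± 0.23, 0.00691) fell. Among receptors, Il22ra1, which binds interleukin-22, rose (2.40 ± 0.59, 0.00824) and Il20ra fell (-3.82 ± 0.51, 0.000269). Tyk2, Stat2 and Jak3 fell by 0.51, 0.89 and 1.01 on the log2 scale. At day 30 and in both wound comparisons of imiquimod with control, 0 of 62 passed.

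In 6 h wounds 21 of 62 were higher and 15 lower after imiquimod (58.1%, against 38.7% of all genes), and 19 and 13 after control cream (51.6%, against 34.7%). At 12 h it was 18 and 16 after imiquimod (54.8%, against 37.6% of all genes) and 14 and 12 after control cream (41.9%, against 30.8%). Of 23 STAT3 targets 8 were higher and 6 lower at 6 h in each treatment, with medians of 0.09 after imiquimod and 0.04 after control cream. Serpina3n had 208 and 210 CPM in 6 h wounds after imiquimod, against 1.44 and 0.509 CPM in unwounded imiquimod skin, and 218 and 237 CPM in 6 h wounds after control cream, against 0.251 and 0.0552 CPM in unwounded skin. The last 2 values rest on 6 and 2 counts, so no fold is given. Vegfa, an angiogenic factor, rose (1.95 ± 0.48 after imiquimod and 2.15 ± 0.49 after control cream). Lcn2 had 41.6 and 57.1 CPM in 6 h wounds after imiquimod, against 1.1 and 0.136 CPM in unwounded imiquimod skin, and 19.3 and 21.9 CPM in 6 h wounds after control cream, against 0.585 and 0.138 CPM in unwounded skin; it passed in both. Myc (-1.76 ± 0.25 and -1.51 ± 0.25), Pim3 (-1.60 ± 0.31 and -1.72 ± 0.31), a relative of Pim1, and Fos (-2.06 ± 0.33 and -1.50 ± 0.32) fell. Like Socs3, Myc and Pim3 were high in day 30 skin itself, Myc at 897 and 728 CPM in day 30 control, against 244 and 217 CPM in day 6 control.

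Of the Janus kinases, Tyk2 fell in 6 h wounds, by 0.79 after imiquimod and 0.82 after control cream, and Ptpn1, a phosphatase of Janus kinases, rose by 0.97 ± 0.15 and 0.96 ± 0.15. Socs5 (0.84 ± 0.22 and 0.92 ± 0.22) and Sh2b3 (0.68 ± 0.15 and 1.05 ± 0.15) rose in 6 h wounds too. Pias3 (-1.19 ± 0.24 and -1.17 ± 0.24) and Ptpn6 (-0.64 ± 0.15 in each) fell, and Socs7 fell after imiquimod (-0.58 ± 0.13).

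**Figure D5:**
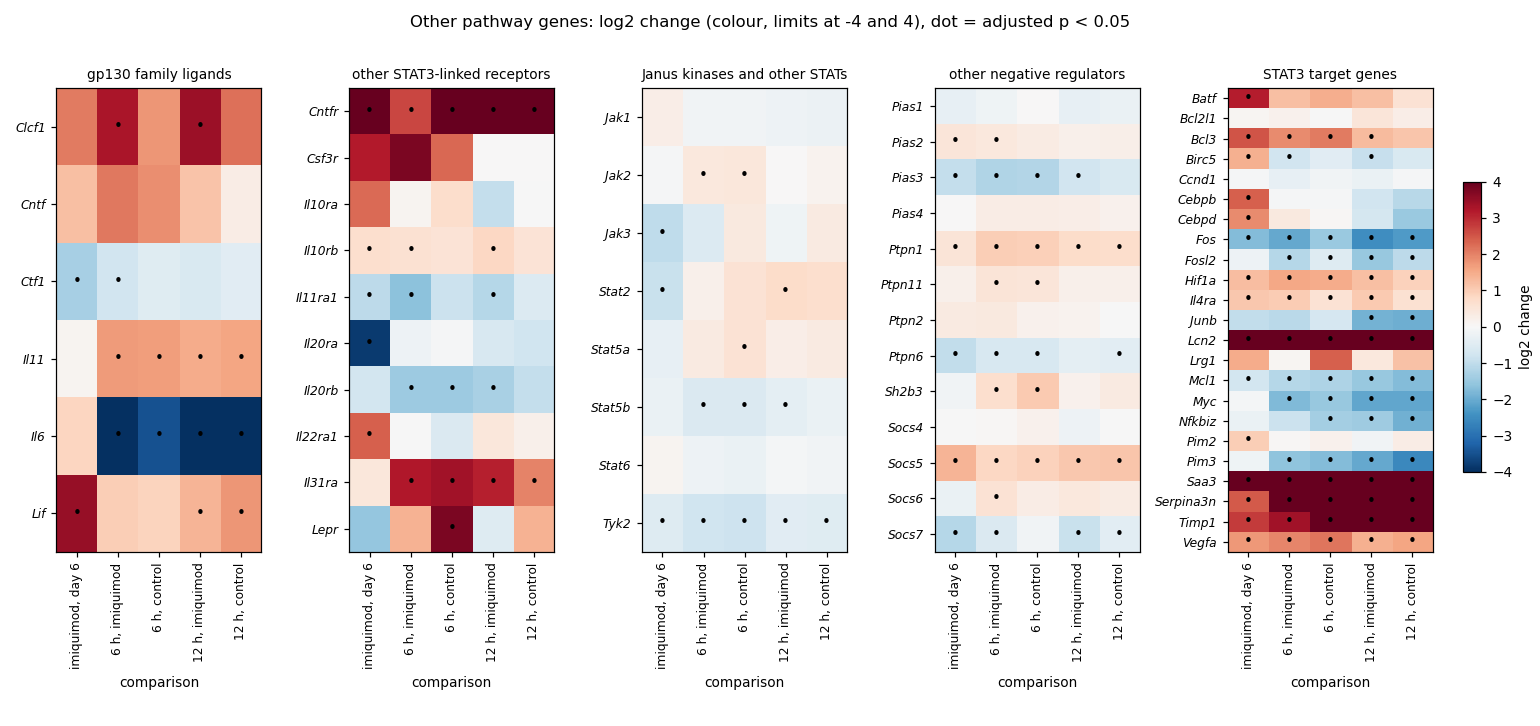
Log2 change (colour, limits at -4 and 4) of 60 of the 62 tested genes of the 5 pathway lists (down the page) in the day 6 imiquimod comparison and the 4 wound comparisons with day 30 skin (columns); a dot marks an adjusted p under 0.05. Among STAT3 targets 13 are higher and 2 lower at day 6, while the wound columns hold both signs, with Fos, Myc and Pim3 lower and Lcn2, Serpina3n and Vegfa higher.

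Genome positions of the members, from the GRCm38 annotation, place Stat3 at chr11:100886806-100939594, Socs3 at chr11:117966079-117970336, Cish at chr9:107296659-107302784, Socs1 at chr16:10783808-10785536 and Socs2 at chr10:95383903-95417321. Il6st lies at chr13:112464070-112506860, Il6ra at chr3:89869324-89913196, Osmr at chr15:6813568-6874968, Lifr at chr15:7090610-7197489 and Pim1 at chr17:29490785-29496111. Annotated lncRNA genes overlap Stat3, Socs2, Il6ra and Pim1. Whether counting used strand is not given, so reads of overlapping genes may not be told apart; the one at Pim1, Gm26885, had 0 to 11 counts.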

How the data were processed

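RNA of 16 libraries (8 groups of 2) was analysed, 23623968 to 76993427 counts each. Trizol, a Zymo kit and Illumina TruSeq RNA preparation were used, with no word on strand, per the labels' protocols. The submitters' processing notes list STAR and mm10; no version or setting of either is stated there. The deposited files hold whole-number counts per gene without normalization, in 1 column; which of STAR's strand columns this is was not stated. Of 47729 IDs 47224 matched a symbol.

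From the counts, CPM were computed as counts scaled to the library total. The test was the robust quasi-likelihood F test of edgeR 4.0.16 (R 4.3.3), after filterByExpr and TMM scaling, in 1 fit of the 8 groups with 8 residual degrees of freedom, since 2 against 2 libraries allow no permutation p under 0.333; SEs come from the F statistic. Two-sided p values carry Benjamini-Hochberg adjustment over the 17299 genes tested, threshold 0.05. Replicates differed by more than counting noise (chi-square per gene 22.9 to 204).

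The labels do not state that replicate numbers pair libraries. In these same data, deviations from group means correlated at 0.22 to 0.539 within times and at -0.285 to 0.115 between them. At day 30 the numbers also separate the libraries with Y-linked reads from the others. The block was therefore fitted within times, as an alternative that leaves fewer residual degrees of freedom. Other alternatives were RLE scaling, DESeq2 1.42.0, other count filters, the compared libraries alone, thinning to the smallest total, leaving out each library, and leaving out both day 30 libraries numbered 1. The members and lists were chosen with earlier results of these data known. Comparisons against day 6 control were added after seeing the data; the day 30 libraries numbered 1 were known from an earlier look to stand apart. Named list genes are up to 3 per direction by log2 change among called genes averaging 2 log2 CPM or more; likeness is Pearson r of log2 CPM (prior count 2). Results of 2 listed genes are not reported here.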

Additional observations from a re-analysis of the deposited data

Results flagged for a closer look

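In 3 genes the change with imiquimod differed between day 6 and day 30 by a test of the difference itself. Of all 17299 genes tested, 22.5% passed the same test, so such a difference was common and not particular to these genes. The log2 change at day 6 minus that at day 30 was -2.21 for Socs2, -2.18 for Cish and -1.61 for Il6ra (edgeR adjusted p = 0.0297, 0.000886 and 0.027). At day 6 all 3 were lower with imiquimod, at -1.61, -2.61 and -1.73, while at day 30 they were at 0.60, -0.44 and -0.13, none of which passed the test. The difference for Cish held without any 1 of the 8 libraries, that for Il6ra without 4 of 8 and that for Socs2 without 2 of 8. With the 8 compared libraries alone in the fit, Socs2 and Il6ra did not pass (edgeR adjusted p = 0.0732 and 0.0874). Groups of 2 libraries were too small for a test of single outlying libraries.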

How the results depend on the processing

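Of 1970 values of single genes under 24 alternative settings (16 of them leaving out 1 library, where the lone library left is assumed to vary like the others), 1842 kept their side of the threshold, 86 lost and 42 gained a call. No called value changed sign, while 118 values with no call did. Counts of called members moved by over 1.5 times as follows. For 12 h against 6 h control wounds, 0 became 1 with DESeq2, 1 with no filter and 3 with the replicate block. For the day 6 minus day 30 imiquimod difference, 3 became 1 with the compared libraries alone and 6 with the block, and 1 to 3 without 1 library. For day 30 against day 6 control, 4 became 2 with the compared libraries alone and 1 to 4 without 1 library. For 12 h control wounds against day 6 control, 5 became 8 with the compared libraries alone, 3 after thinning and 2 to 4 without 1 library. Without 1 library 3 to 4 instead of 6 members were called for imiquimod at day 6 and 4 to 6 instead of 7 for 6 h control wounds. The causes were not tested. Of all genes, calls for 12 h against 6 h control wounds ran from 13 without 12 h library 1 to 1296 with the block, against 112 (632 with DESeq2), for the same times after imiquimod from 0 to 635, against 30, and for day 30 against day 6 control from 1034 to 6138, against 3677. The block changed no call of a member beyond those given with the results. Depth limits Socs2 most, at 12 to 158 counts.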
